A study of Homo sapiens with 9 samples.

Results

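The genes described here are the transcription factors that drive the epithelial-to-mesenchymal transition (EMT), SNAI1, SNAI2, ZEB1, ZEB2, TWIST1 and TWIST2, the epithelial factor GRHL2, the cadherins CDH1 (E-cadherin) and CDH2 (N-cadherin), and the intermediate filament gene VIM (vimentin). These 10 genes were taken by name from the 59453 gene names in the count data. Of the 10, 7 passed the filter on low counts and were among the 16556 genes tested, and TWIST1, TWIST2 and GRHL2 did not pass.

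RNA was sequenced from MDA-MB-231, an established triple-negative breast cancer cell line with a mesenchymal appearance, grown in DMEM with FBS. Of 9 libraries, 3 were from untreated cells, 3 from cells given the copper chelator TEPA for 8 h and 3 from cells given TEPA for 24 h. The sample labels give a TEPA concentration of 8 mM, whereas the study's sequencing methods state a lower one and gives the compound a different chemical name in its text than in its reagent list. The labels do not say when the single untreated group was collected or whether replicates were separate cultures, so time in culture and time in TEPA cannot be told apart, and p-values measure only the spread between these libraries.

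EMT is the programme by which epithelial cells lose their contacts and become motile. The SNAI and ZEB proteins are zinc finger repressors that bind E-box sequences, classically in the promoter of CDH1, whose product holds epithelial cells together at adherens junctions, and the TWIST proteins are basic helix-loop-helix factors that act in the same programme. GRHL2 maintains epithelial genes and opposes ZEB1, while N-cadherin and vimentin are features of mesenchymal cells, and the microRNAs miR-200c and miR-141 repress ZEB1 and ZEB2 in epithelial cells.

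The mature sequences of those microRNAs (RefSeq, GRCh38.p14) are shown because they are the classical brake on the ZEB genes, with the seed (bases 2 to 8) in capitals. They lie on the plus strand of chromosome 12, at chr12:6963742-6963764 for miR-200c-3p and chr12:6964155-6964176 for miR-141-3p.
hsa-miR-200c-3p: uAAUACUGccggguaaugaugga
hsa-miR-141-3p: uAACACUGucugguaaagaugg
Their host transcript, MIR200CHG, had 1 count in all 9 libraries together, and the microRNAs themselves were not assayed by these libraries.

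Promoters were found in the RefSeq promoter set for ZEB1, ZEB2, TWIST2, VIM and CDH2. The 250 bases before a start site are shown for ZEB1 and VIM, the pair with the highest levels per length, with the E-box searched for (CACCTG or its reverse complement CAGGTG) in capitals. Both are on the plus strand of GRCh38.p14.
ZEB1, chr10:31318167-31318416: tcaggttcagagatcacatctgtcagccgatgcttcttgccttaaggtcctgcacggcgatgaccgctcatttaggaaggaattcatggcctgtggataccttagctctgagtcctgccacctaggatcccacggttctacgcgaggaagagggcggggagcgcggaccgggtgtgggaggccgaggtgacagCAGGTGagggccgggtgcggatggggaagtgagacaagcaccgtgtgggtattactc
VIM, chr10:17227991-17228240: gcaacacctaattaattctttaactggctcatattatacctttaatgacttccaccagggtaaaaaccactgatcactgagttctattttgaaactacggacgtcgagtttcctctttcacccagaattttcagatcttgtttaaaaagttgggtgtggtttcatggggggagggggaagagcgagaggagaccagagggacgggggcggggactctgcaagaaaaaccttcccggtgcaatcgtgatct
The ZEB1 window shown, the first of 7 start sites in the set, held 1 such E-box, 57 bases before the start, and the VIM window held none. Of the other 6 ZEB1 windows, 1 held the motif at 242 and 85 bases before its start and 5 held none. Of all 35116 promoters in the set, 17.5% held this motif in the 250 bases before the start, so a match is a description and not evidence of binding.

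The libraries held 34633755 to 49342659 counts. Levels are given as CPM, counts scaled to a common library size. A count of 0 allows up to 3 counts, or 0.0588 to 0.0834 CPM depending on the library, counting error only. Scaling factors for library composition were 1.02 to 1.04 in the 24 h libraries and 0.978 to 0.997 in the untreated and 8 h libraries, so they differed by group. The first untreated library stood farthest from its group, with 9.76% of tested genes more than 0.5 (log2) from the other 2 untreated libraries, against 5.86% to 8.71% for the rest. PGR had 0 counts in every library and ESR1 had 2 to 9, whereas ERBB2 was present at 81.4 ± 5.11 CPM (SD, n = 3) in untreated cells, and the basal marker CD44 stood at 859 ± 61.3 CPM. Of the fibroblast markers, COL1A1 had 518 to 1311 counts, while COL3A1 and LUM had at most 13, COL1A2 at most 6, DCN at most 4 and PDGFRA at most 2. Of the endothelial markers, PECAM1 had 34 to 364 counts and KDR 12 to 32, while CDH5 and VWF had at most 3. PTPRC of blood cells had at most 5 counts, and CD3E and HBB had none. The part of these markers in the results was not tested.

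Among the 7 genes tested, VIM was by far the most abundant and CDH1 and CDH2 the least. Per kilobase of the canonical transcript, untreated cells held 1706 CPM per kb of VIM (rank 18 of the 14580 genes with a length), 20.01 of ZEB1, 14.8 of SNAI2, 7.41 of SNAI1, 2.18 of ZEB2, 0.130 of CDH1 and 0.0593 of CDH2. On this scale CDH1 lay above only 4.49% and CDH2 above only 1.44% of the genes with a length. The order of these 7 genes was the same in the 3 groups, and the libraries of neighbours in it did not overlap, with the exception of SNAI2 and SNAI1 after 24 h, at 10.6 to 11.6 and 9.35 to 10.96 CPM per kb. Which of this pair is higher after 24 h depends on the length used, since per kilobase of all annotated exons SNAI1 averaged 10.0 and SNAI2 7.30.

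**Figure D1:**
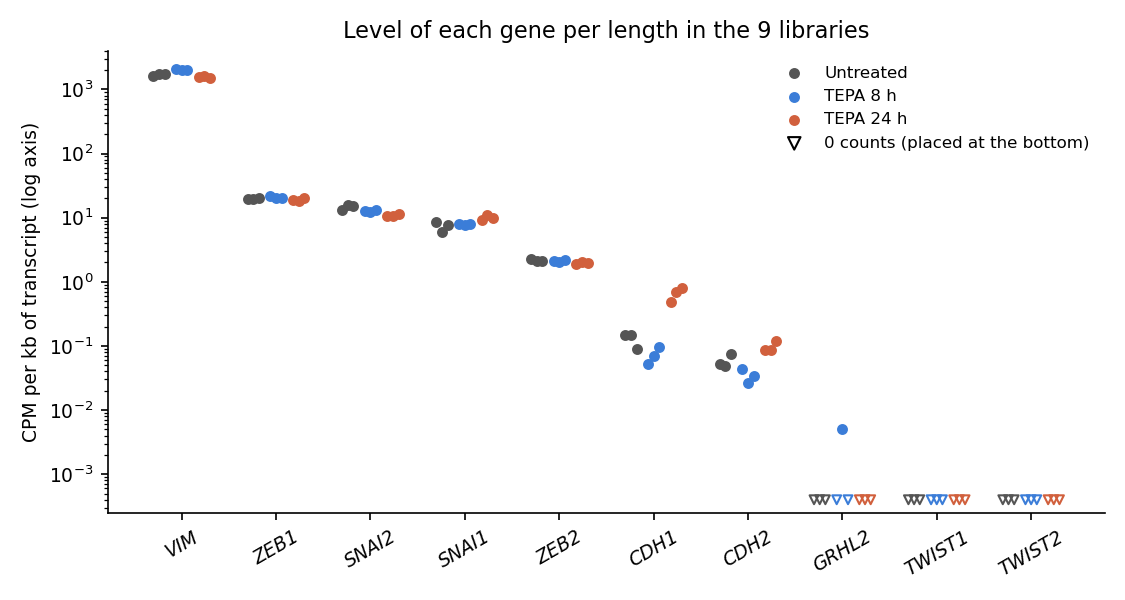
Level of each gene in CPM per kb of canonical transcript (vertical log axis) in the 9 libraries, with colour for the group and open triangles for libraries with 0 counts. VIM lies between 1505 and 2059, the SNAI and ZEB genes between 1.89 and 21.6, CDH1 and CDH2 below 1, and TWIST1 and TWIST2 have 0 counts throughout.

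TWIST1, TWIST2 and GRHL2 were at the limit of detection. TWIST1 (chr7:19020991-19117636, minus strand, GENCODE v44 on hg38) and TWIST2 (chr2:238848032-238910534, plus strand) had 0 counts in all 9 libraries. GRHL2 (chr8:101492439-101669726, plus strand) had 1 count in the second 8 h library and 0 in the other 8. No fold change is given for these 3 genes, since every library was at or under 3 counts. Transcripts below that limit were not detectable at this depth.

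After 8 h of TEPA, VIM rose and SNAI2 fell, and SNAI1, ZEB1, ZEB2, CDH1 and CDH2 did not pass the test. That is 2 of 7 genes called by edgeR's quasi-likelihood test at an adjusted p under 0.05, where 49.6% of all genes tested were called (25.2% higher and 24.5% lower). After 24 h, SNAI1 and CDH1 rose and SNAI2, ZEB2 and VIM fell, 5 of 7 against 52.5% of all genes (25.7% higher and 26.8% lower). Between the 2 times, SNAI1, CDH1 and CDH2 were higher and SNAI2, ZEB1 and VIM lower at 24 h than at 8 h, where 54.8% of all genes were called (26.0% higher and 28.8% lower). CDH2 passed the filter through its 24 h libraries, so its call does not count beside that share, which leaves 5 of the other 6 genes. The comparisons with untreated cells share the same 3 untreated libraries, and in bulk RNA fewer cells carrying a transcript and less transcript per cell cannot be told apart.

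**Figure D2:**
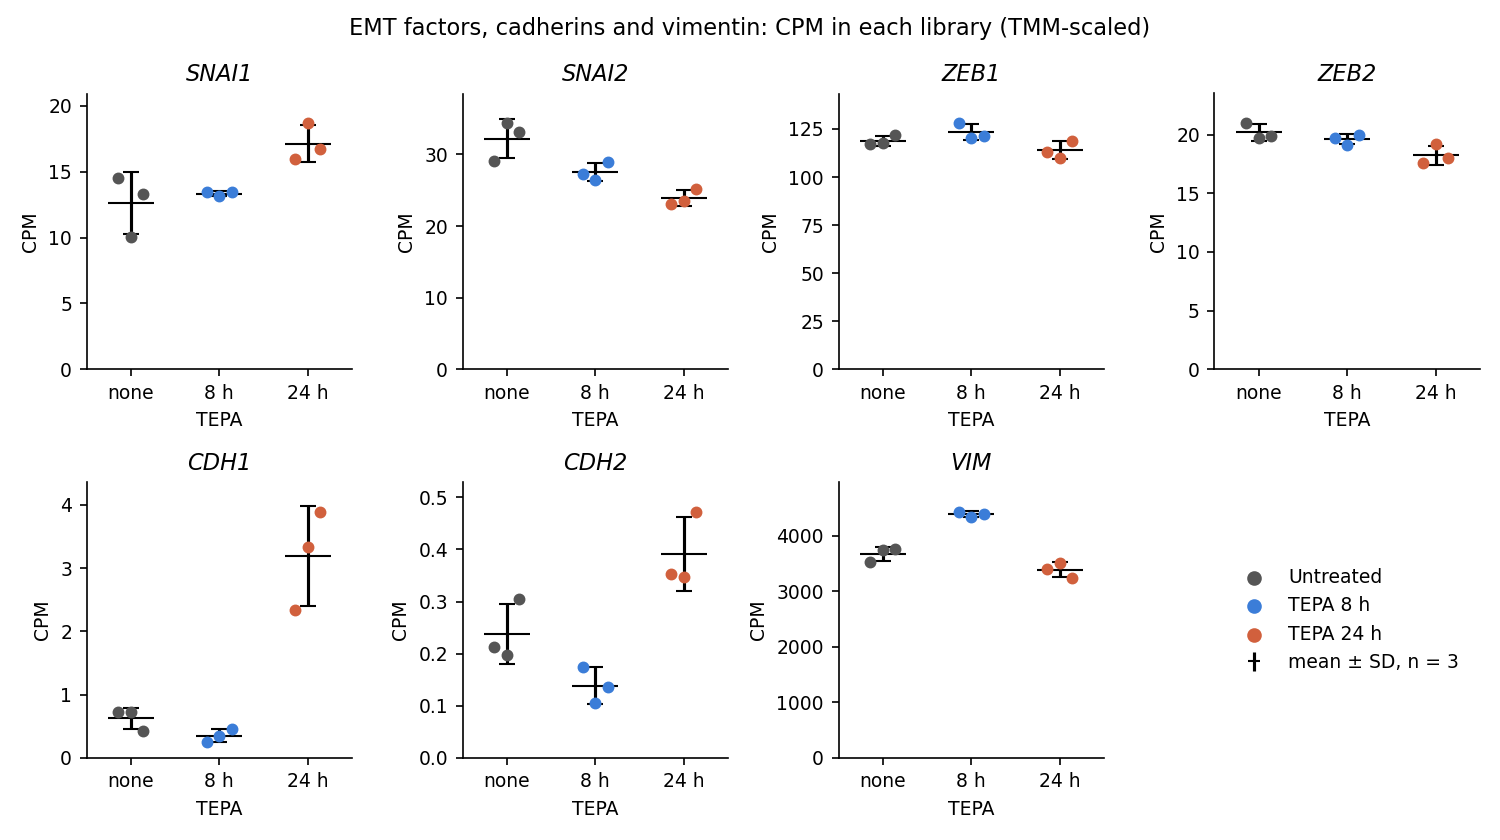
CPM (TMM-scaled, vertical axes from 0) of the 7 genes that passed the filter in each library, by group, with bars for mean ± SD (n = 3). The 24 h libraries of CDH1 (2.33 to 3.89 CPM) lie above all others, and VIM is highest at 8 h and SNAI2 lowest at 24 h.

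SNAI1 (chr20:49982980-49988886, plus strand), which encodes Snail, stood at 14.6, 10.0 and 13.3 CPM in the 3 untreated libraries, at 13.4, 13.1 and 13.4 CPM after 8 h and at 15.9, 18.7 and 16.7 CPM after 24 h. The untreated and 8 h libraries overlapped, and every 24 h library was above all the others. The log2 fold change was 0.08 (95% interval -0.14 to 0.31, adjusted p = 0.54) at 8 h. At 24 h it was 0.44 (SE 0.104, adjusted p = 0.0020), a 1.36-fold rise, and from 8 h to 24 h it was 0.36 (adjusted p = 0.0079). The untreated libraries were the more spread, with an SD of 2.33 CPM against 0.179 at 8 h.

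SNAI2 (chr8:48917598-48921740, minus strand), which encodes Slug, moved the other way. Its level was 29.1, 34.4 and 33.1 CPM in untreated cells, 27.3, 26.4 and 28.9 CPM at 8 h and 23.1, 23.5 and 25.2 CPM at 24 h. The 3 groups did not overlap, and each was lower than the one before. The log2 fold change was -0.23 (SE 0.0648, adjusted p = 0.0085) at 8 h, -0.43 (SE 0.0650, adjusted p = 4.4e-05) at 24 h and -0.20 (adjusted p = 0.016) from 8 h to 24 h. That last call was lost without the third 8 h library (log2 fold change -0.16, adjusted p = 0.086) and without the first 24 h library (-0.18, adjusted p = 0.070).

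Counts of SNAI2 per count of SNAI1, which need no scaling between libraries, were 1.998, 3.42 and 2.49 in untreated cells, 2.03, 2.01 and 2.15 at 8 h and 1.45, 1.26 and 1.51 at 24 h. All 3 libraries at 24 h were below the other 6, while the untreated and 8 h libraries overlapped.

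ZEB1 (chr10:31318495-31529814, plus strand) encodes the zinc finger repressor that GRHL2 opposes. It stood at 117, 118 and 122 CPM untreated, 128, 121 and 121 CPM at 8 h and 113, 110 and 119 CPM at 24 h. The untreated libraries overlapped with both treated groups, whereas those at 8 h lay above those at 24 h. Against untreated cells the log2 fold change was 0.05 (95% interval -0.03 to 0.14, adjusted p = 0.29) at 8 h and -0.06 (-0.15 to 0.02, adjusted p = 0.22) at 24 h. From 8 h to 24 h it was -0.12 (adjusted p = 0.024), a call lost without the first 8 h library (-0.08, adjusted p = 0.13), the first 24 h library (-0.11, adjusted p = 0.080) or the second 24 h library (-0.09, adjusted p = 0.092), and also with no filter or only the 2 groups fitted.

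ZEB2 (chr2:144364364-144521057, minus strand), the related repressor, read 21.0, 19.7 and 19.9 CPM untreated, 19.67, 19.14 and 19.999 CPM at 8 h and 17.54, 19.16 and 17.96 CPM at 24 h. The 24 h libraries lay just below the untreated ones. The log2 fold change was -0.04 (95% interval -0.17 to 0.08, adjusted p = 0.58) at 8 h and -0.15 (SE 0.0582, adjusted p = 0.044) at 24 h. The 24 h call was lost in 15 of 16 alternatives, with values of -0.19 to -0.12 and adjusted p of 0.024 to 0.17.

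CDH1 (chr16:68737292-68835537, plus strand) was close to the filter in untreated cells and showed the greatest change of the 7 genes at 24 h. The untreated libraries held 27, 33 and 17 counts (0.720, 0.722 and 0.431 CPM), the 8 h libraries 10, 13 and 17 counts (0.250, 0.340 and 0.463 CPM) and the 24 h libraries 119, 144 and 140 counts (2.33, 3.34 and 3.89 CPM). The 24 h libraries were far above the rest, while 1 library at 8 h lay within the untreated range. The log2 fold change was 2.33 (SE 0.245, adjusted p = 1.1e-06) at 24 h, a 5.02-fold rise, and 3.17 (adjusted p = 1.2e-07) from 8 h to 24 h.

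At 8 h the log2 fold change of CDH1 was -0.84 (95% interval -1.58 to -0.11, adjusted p = 0.054). It passed the threshold in 6 of 16 alternatives, namely with DESeq2 (adjusted p = 0.040), with no filter (adjusted p = 0.016), and without the third untreated library (-1.05, adjusted p = 0.026), the third 8 h library (-1.09, adjusted p = 0.041), the first 24 h library (-0.84, adjusted p = 0.036) or the third 24 h library (-0.84, adjusted p = 0.047). Even after the rise, CDH1 stood at 0.663 CPM per kb at 24 h, below ZEB2 at 1.97. The endothelial marker PECAM1 averaged 3.59, 1.06 and 8.13 CPM in the 3 groups, KDR averaged 0.508, 0.799 and 0.543 CPM, and CDH5 and VWF had 0 to 3 counts in every library.

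CDH2 (chr18:27932879-28177946, minus strand) was barely detected. Its 3 untreated libraries gave 8, 9 and 12 counts, the 8 h ones gave 7, 4 and 5, and those from 24 h gave 18, 15 and 17. In CPM these were 0.213, 0.197 and 0.304, then 0.175, 0.105 and 0.136, then 0.353, 0.347 and 0.473. None of the groups overlapped. It passed the filter through its 24 h libraries, 3 of which were over the limit of 0.250 CPM against 1 untreated and 0 at 8 h. Passing this way favours a difference between 24 h and 8 h (log2 fold change 1.45, adjusted p = 0.0043), so that call is not counted. The log2 fold change against untreated cells was -0.76 (95% interval -1.65 to 0.14, adjusted p = 0.15) at 8 h and 0.70 (-0.02 to 1.42, adjusted p = 0.097) at 24 h.

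Counts of CDH1 per count of CDH2 were 3.38, 3.67 and 1.42 in untreated cells, 1.43, 3.25 and 3.40 at 8 h and 6.61, 9.60 and 8.24 at 24 h. The 24 h libraries were above the other 6, although the divisor is as low as 4 counts.

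VIM (chr10:17228241-17237593, plus strand) read 3532, 3737 and 3754 CPM untreated, 4435, 4333 and 4392 CPM at 8 h and 3407, 3514 and 3242 CPM at 24 h. Every 8 h library was above, and every 24 h library below, all untreated libraries. The log2 fold change was 0.26 (SE 0.0394, adjusted p = 6.4e-05) at 8 h, -0.12 (SE 0.0394, adjusted p = 0.020) at 24 h and -0.37 (adjusted p = 1.0e-06) from 8 h to 24 h. The 24 h call was lost in 5 of 16 alternatives, among them without the third untreated library (-0.10, adjusted p = 0.093), the first 24 h library (-0.12, adjusted p = 0.055) or the third 24 h library (-0.09, adjusted p = 0.093).

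**Figure D3:**
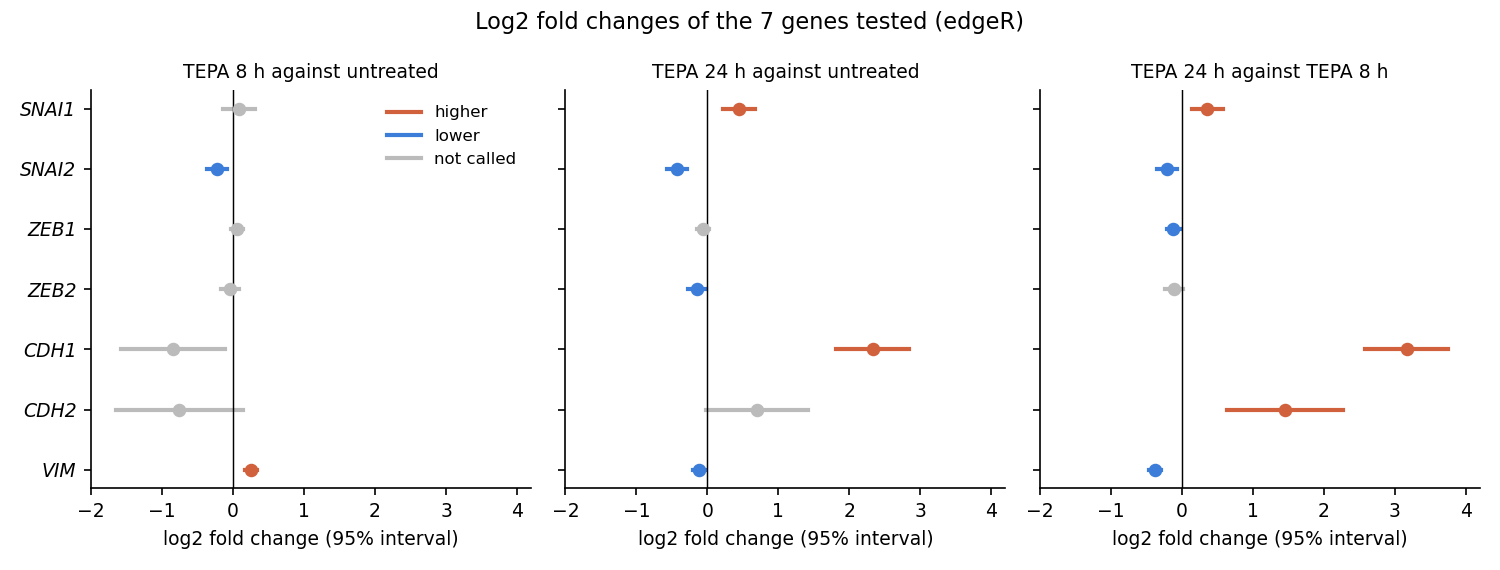
Log2 fold changes (horizontal axis, points) with 95% intervals (lines) of the 7 genes in the 3 comparisons, coloured by the edgeR call. The intervals of CDH1 at 24 h (1.81 to 2.85) and from 8 h to 24 h (2.58 to 3.75) lie far from 0, and those of CDH2 are the widest of the 7 genes.

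Several of these genes have antisense partners. In GENCODE v44, no gene on the same strand shares exon sequence with any of the 10. Reads were counted with strand, so reads of VIM-AS1, ZEB1-AS1 and ZEB2-AS1 are told apart from VIM, ZEB1 and ZEB2. The study counted reads on a different annotation release, in which overlaps were not examined. VIM-AS1 and ZEB1-AS1 did not pass the test against untreated cells at either time (VIM-AS1 0.04 and -0.17 on the log2 scale, adjusted p = 0.68 and 0.096), and ZEB2-AS1 had 1 count in all. VIM-AS1 was lower at 24 h than at 8 h (-0.21, adjusted p = 0.038), a call lost in 9 of 16 alternatives.

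The other cadherins place CDH1 and CDH2 in context. Of the other 20 cadherins listed, 8 had 0 counts in every library and 4 were tested. CDH24 (a type II cadherin) and CDH4 (R-cadherin) were the most abundant, followed by CDH11 (OB-cadherin, of mesenchymal cells). As a share of cadherin CPM per kb over 22 cadherins, CDH24 took 42.6% ± 1.21, 54.6% ± 1.46 and 39.8% ± 0.606 in untreated, 8 h and 24 h cells (SD, n = 3).

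CDH11 took 19.0% ± 4.31, 9.51% ± 0.397 and 22.5% ± 0.633 of the cadherin pool, and CDH1 0.722% ± 0.190, 0.353% ± 0.108 and 5.15% ± 1.19. CDH4 fell at 24 h (log2 fold change -0.74, adjusted p = 4.0e-06) and so did CDH24 (-0.59, adjusted p = 6.9e-07), whereas at 8 h CDH24 rose (0.56, adjusted p = 1.0e-06) and CDH11 fell (-0.79, adjusted p = 8.0e-06). Among the 4 tested other cadherins, 1 rose and 1 fell at 8 h, where 25.2% of all genes rose and 24.5% fell. At 24 h 0 rose and 3 fell, against 25.7% and 26.8% of all genes. Beside CDH4 and CDH24 the gene that fell was CDH11 (-0.23, adjusted p = 0.0497), whose 24 h and untreated libraries overlapped. The first untreated library of CDH11 stood at 27.4 CPM, against 20.2 and 20.8 CPM in the other untreated ones. Its 24 h libraries read 18.2, 20.3 and 19.8 CPM, and alternatives for this call are not given here.

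**Figure D4:**
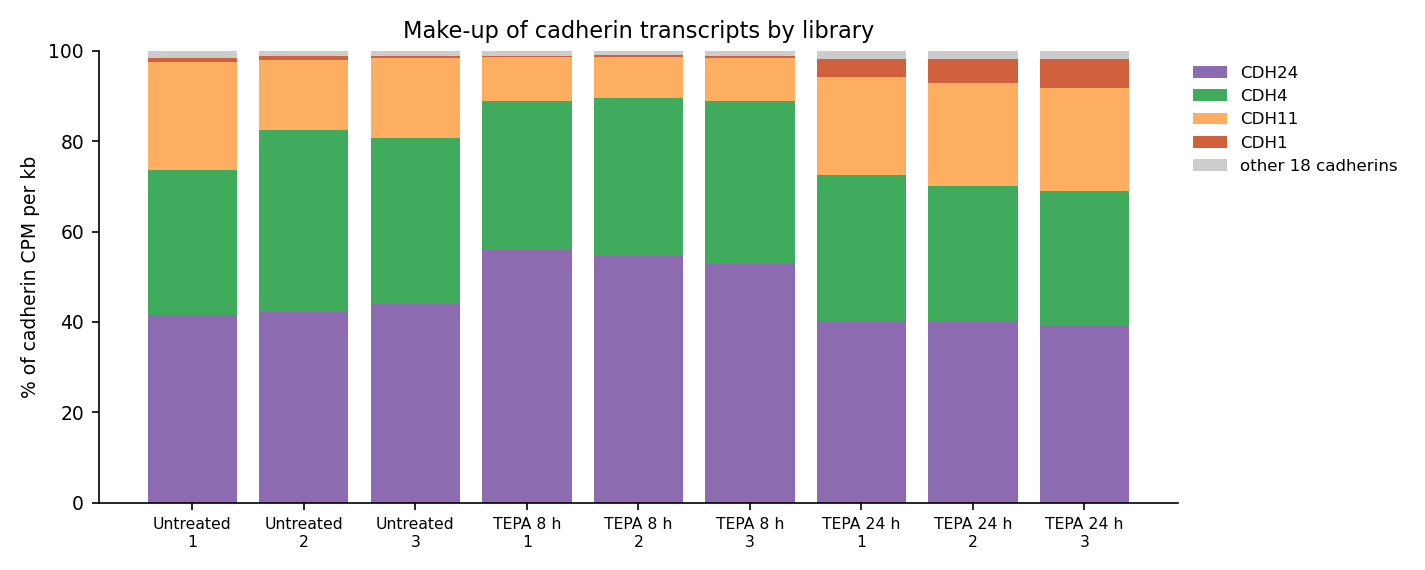
Percent of cadherin CPM per kb held by CDH24, CDH4, CDH11, CDH1 and the other 18 cadherins in each of the 9 libraries (stacked bars from 0 to 100). The CDH11 segment is smallest in the 8 h libraries, and the CDH1 segment is widest in the 24 h libraries (mean 5.15%).

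Beside the genes above, other factors of the same programme were examined. Each gene value given from here on is an edgeR log2 fold change that passed the threshold, unless given in CPM or for an alternative. The counts of each list stand beside all genes tested, of which 25.2% rose and 24.5% fell at 8 h. At 24 h 25.7% rose and 26.8% fell, and from 8 h to 24 h 26.0% rose and 28.8% fell. Of 8 other EMT transcription factors tested, 2 rose and 4 fell at 8 h, and 1 rose and 5 fell at 24 h, with median log2 fold changes of -0.23 and -0.33 against -0.0013 and 0.0023 over all genes. FOXQ1, a forkhead factor of EMT, fell at 8 h (-1.10) and 24 h (-0.70), and SOX4 fell at 8 h (-1.05). HMGA2, a chromatin protein that promotes SNAI1 expression, rose at 8 h (0.69) and was lower at 24 h than at 8 h (-1.08). TCF4, an E-box binding partner of TWIST1, rose at 24 h (0.73), a call lost without the second untreated library (0.53, adjusted p = 0.083), and FOXC1 fell (-0.68).

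Among 7 epithelial transcription and splicing factors, 0 rose and 3 fell at 8 h, and 2 rose and 2 fell at 24 h. ELF3, an epithelial ETS factor, fell at 8 h (-2.30, adjusted p = 0.00080) from 0.926 CPM and rose at 24 h (1.30, adjusted p = 0.0022). Its counts were low, at 58, 25 and 27 untreated and 4, 13 and 4 at 8 h. The 8 h value ranged from -3.09 to -1.73 over 15 alternatives, in all of which the call was kept. KLF5 fell at 8 h (-0.23) and 24 h (-0.47), and GATA3 rose at 24 h (0.42). ESRP2, an epithelial splicing regulator, was lower at 8 h (-0.59, adjusted p = 0.032), a call lost in 5 of 16 alternatives. Those were DESeq2 and the fits without the second or the third untreated library (-0.48 and -0.60) or the second or the third 8 h library (-0.47 and -0.59).

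Of 23 junction proteins and keratins, 3 rose and 10 fell at 8 h, and 5 rose and 7 fell at 24 h. At 8 h the desmosome-associated genes JUP (plakoglobin) and PPL (periplakin) and the tight junction gene CLDN1 fell by 1.77, 1.55 and 1.61 on the log2 scale. At 24 h CLDN1 (-1.13), MARVELD2 (-0.87) and JUP (-0.76) were lower than untreated. The JUP value leans on the first untreated library, at 20.6 CPM against 8.76 and 10.7 in the other 2, and was -0.30 (adjusted p = 0.020) without it. Others were above untreated with no overlap of libraries. EVPL averaged 149 CPM untreated and 237 CPM at 8 h, and KRT7 356 CPM untreated and 452 CPM at 24 h. From 8 h to 24 h, 8 rose and 3 fell, with PPL (1.29), JUP (1.01) and F11R (0.81) in front.

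The catenins are partners of the cadherins at cell junctions. Of 5 tested, 0 rose and 3 fell at 8 h, namely CTNND1 (-0.33), CTNNB1 (-0.25) and CTNNA1 (-0.20). At 24 h CTNNB1 (β-catenin) was lower (-0.28), whereas CTNNA1 (-0.10) and PKP4 (0.12) passed the test with smaller changes. Both calls were lost without the first 24 h library (-0.08, adjusted p = 0.11, and 0.12, adjusted p = 0.051). The call for CTNNA1 was also lost without the third untreated (-0.10, adjusted p = 0.067) or the third 24 h library (-0.08, adjusted p = 0.075), and that for PKP4 without the first untreated library (0.08, adjusted p = 0.058).

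Of 10 mesenchymal markers, 3 rose and 5 fell at 8 h, and 2 rose and 4 fell at 24 h. Among those that rose at 8 h were the smooth muscle gene TAGLN (0.83) and the matrix gene TNC (0.74). At 24 h PDGFRB, a growth factor receptor, rose (1.47), S100A4, a metastasis-associated calcium binding protein, rose (1.42), and NES (nestin) fell (-1.01). At 8 h both S100A4 and NES were below untreated with no overlap of libraries. S100A4 averaged 9.42 CPM untreated and 6.40 CPM at 8 h, and NES 18.9 and 12.4 CPM.

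The corepressors that SNAI and ZEB proteins recruit were all tested, and 5 of 18 rose and 7 fell at 8 h, and 2 rose and 10 fell at 24 h. At 8 h WTIP (-0.51), HDAC1 (-0.34) and CTBP1 (-0.33) fell, and at 24 h WTIP (-1.31), CTBP1 (-0.54), a corepressor of ZEB1, and KDM1A (-0.50), the demethylase that binds SNAI1. HDAC1 averaged 186 CPM at 24 h against 192 CPM untreated, with overlap of libraries. Above untreated at 8 h, with no overlap, were DNMT1 (500 CPM untreated, 615 CPM at 8 h) and SMARCA4 (345 and 407 CPM). Among 10 kinases, ubiquitin ligases and deubiquitinases of SNAI1, 2 rose and 2 fell at 8 h, and 4 rose and 3 fell at 24 h. FBXL14, a ligase subunit for SNAI1, rose at both times (0.27 and 0.40) and MDM2 at 24 h (0.31), while at 8 h the changes of BTRC (0.16) and FBXL5 (-0.14) were no longer called without the third untreated library (0.13, adjusted p = 0.091, and -0.12, adjusted p = 0.070), and that of BTRC also without the second 8 h library (0.13, adjusted p = 0.086).

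**Figure D5:**
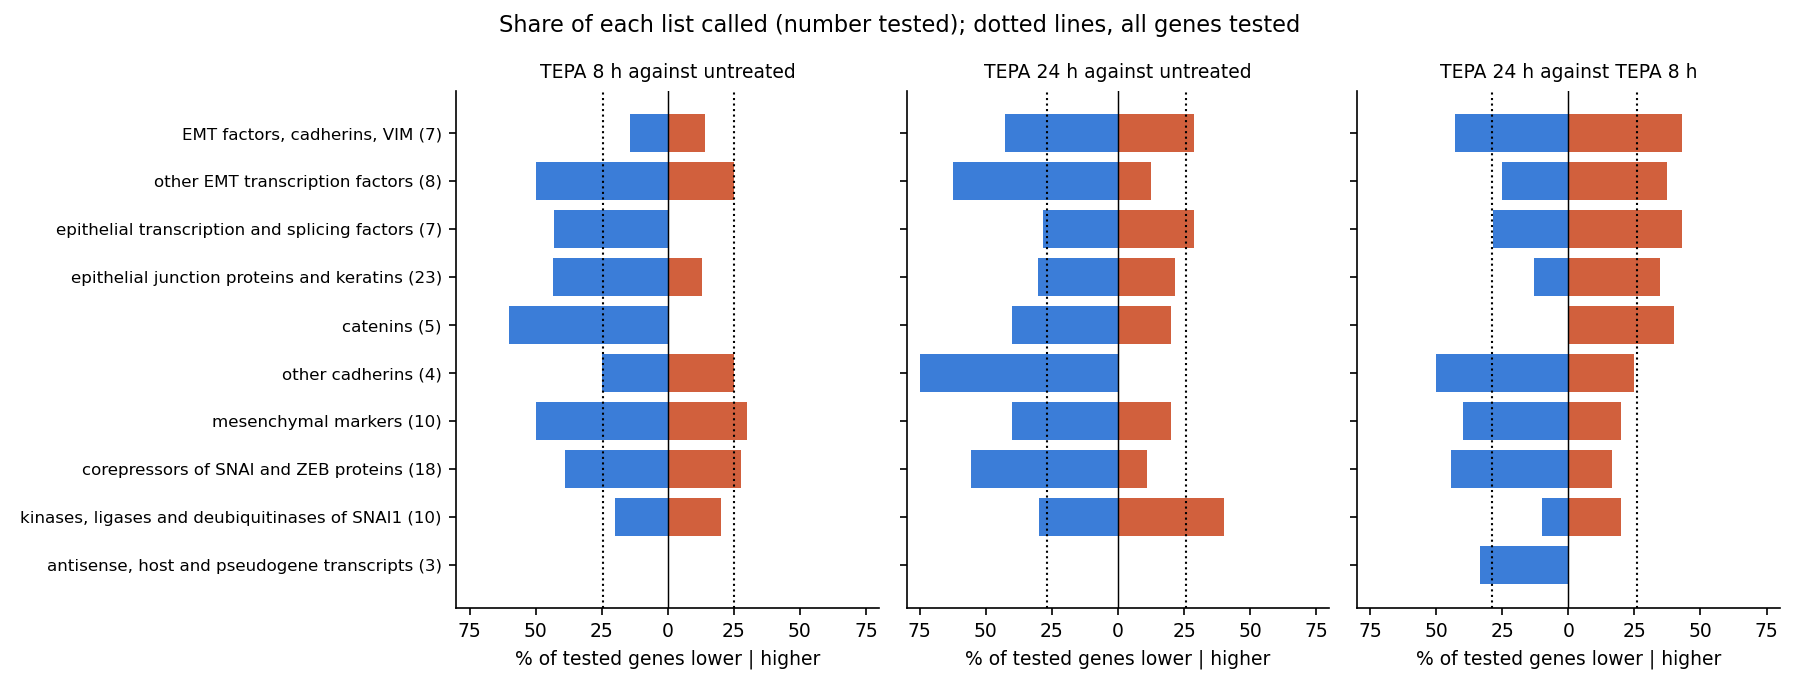
Percent of the tested genes of each list called higher (right) or lower (left) in the 3 comparisons, with the number tested in brackets and dotted lines for all 16556 genes. At 24 h against untreated, every list except the antisense, host and pseudogene transcripts (0 of 3) extends past the dotted line at 26.8% on the lower side, from 2 of 7 epithelial factors to 3 of 4 other cadherins. The epithelial factors, the junction genes (7 of 23) and the kinases, ligases and deubiquitinases of SNAI1 (3 of 10) lie close to that line. On the higher side, the kinases, ligases and deubiquitinases of SNAI1 (4 of 10) pass the line at 25.7%. The EMT genes (2 of 7) and the epithelial factors (2 of 7) pass it too but lie close to it.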

How the data were processed

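The libraries were made with the TruSeq stranded mRNA kit and sequenced in pairs on a NovaSeq. Reads were checked with FastQC, aligned with HISAT2 and counted with featureCounts, per the submitters' processing notes (versions not given in the sources used here), with strand, over exons, by gene name, on hg38 (GRCh38). The deposited values are raw counts per gene, not normalized by the authors, 1 column per library with 0 columns left unmapped. No pair of libraries held identical counts.

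From the counts, R 4.3.3, edgeR 4.0.16 and limma 3.58.1 were used. Genes were kept by filterByExpr (minimum count 10), which left 16556 genes with 99.9% of counts, scaled by TMM, and tested in 1 quasi-likelihood fit over all 9 libraries with Benjamini-Hochberg adjustment over all genes and a threshold of 0.05. CPM is TMM-scaled. The procedure was tested on simulated data. Lengths and positions are from GENCODE v44 (hg38), a different annotation release from the one on which the study counted reads. Sequences are from RefSeq. The 10 genes and the lists were chosen with earlier results of these data known. All 10 are named. From each list, up to 3 called genes per comparison are named, those with the greatest change, at least 20 mean counts and no overlap. A few other genes of the lists are named beside them. Some genes that the rule would name are not reported here. DESeq2 1.42.0, other scalings and filters, a fit of only 2 groups, a fold limit, a replicate block and leaving out each library were alternatives.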

Additional observations from a re-analysis of the deposited data

Results flagged for a closer look

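The effect of TEPA differed between 8 h and 24 h for 5 of the 6 genes that did not depend on their 24 h libraries to pass the filter, by the direct comparison of 24 h with 8 h (edgeR quasi-likelihood test). In this comparison 54.8% of all genes tested were called. The log2 difference between the times was 3.17 for CDH1 and 0.36 for SNAI1. It was -0.37 for VIM, -0.20 for SNAI2 and -0.12 for ZEB1. The SNAI2 call was lost in 2 and the ZEB1 call in 5 of 16 alternatives. For CDH2 the log2 difference was 1.45, but CDH2 passed the filter through its 24 h libraries, which favours a difference, so it is not counted. At these times VIM was called higher and then lower than untreated, whereas SNAI2 was called lower at both. The labels do not say when the untreated cells were collected, so time in culture and time in TEPA cannot be told apart.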

How the results depend on the processing

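No log2 fold change that passed the test changed sign in an alternative run gene by gene. SNAI1 at 24 h, SNAI2 at 8 h and 24 h, CDH1 at 24 h and VIM at 8 h kept their calls in all 16 alternatives run gene by gene. So did CDH1, SNAI1 and VIM from 8 h to 24 h. CDH2 from 8 h to 24 h kept its call in 15 and had no value under the stricter filter. It passed the filter through its 24 h libraries, so its kept call is no support for a difference. The counts of EMT genes between the times below include CDH2 where it was called. The 16 alternatives do not include the fold limit, which was applied to the counts of calls. A fold limit of 0.5 (log2) left 0 of the EMT genes called at 8 h (edgeR, where 3 had an unadjusted p under 0.05 and DESeq2 called 3), 1 at 24 h and 2 between the times, and 20, 19 and 22 of the listed genes against 51, 53 and 47. Without the limit 49.6%, 52.5% and 54.8% of all genes tested were called. The shares of all genes under the alternatives are not given here. At 24 h, upper-quartile scaling and a fit of only the 2 groups each called 3 of the EMT genes, not 5. Without 1 library at a time the EMT genes called numbered 2 to 3 at 8 h, 3 to 5 at 24 h (3 without the third untreated, the first 24 h or the third 24 h library) and 4 to 6 between the times, and the listed genes called 44 to 52, 44 to 51 and 43 to 50. ZEB2 at 24 h was the least stable. Replicate numbers did not pair the libraries (correlations of -0.0801 to 0.0383 over 9 same-numbered pairs), and with the replicate block the EMT genes called were 2, 4 and 6, ZEB2 at 24 h being lost (adjusted p = 0.072). Of the 70 differences named from the lists, 61 kept their call under all of these alternatives that gave a value (15 or 16), fold limit not included, 9 lost it under at least 1 and 0 reversed. Depth limits TWIST1, TWIST2, GRHL2 and CDH2.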

Other observations

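The genes whose pattern over the 9 libraries was most like that of an EMT gene were found by the root mean square difference of centred log2 CPM. For SNAI2 these were GABPB1 (0.0508), ITGA6 (0.0539) and RRP8 (0.0583), for SNAI1 SRCIN1 (0.0759), ID3 (0.0826) and IRX5 (0.0864), and for ZEB2 UBXN1 (0.0262), C11orf24 (0.0341) and TTC7B (0.0347). For VIM they were UBAP2 (0.0190), COQ4 (0.0312) and TOE1 (0.0335). CDH1 had no gene as close, the nearest being CEMIP (0.345), ALPP (0.350) and LINC02009 (0.364), with log2 fold changes of -1.02 to -0.79 at 8 h and 1.92 to 2.37 at 24 h. These genes were picked for their likeness and are a description of 9 libraries. Low counts and large changes both enlarge this distance. CDH1 had a mean of 57.8 counts per library, against 587 for SNAI1, so its distances cannot be compared with those of the others.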
